A study of Rattus norvegicus with 8 samples.

Results

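Nucleotide sugar transporters of the SLC35A and SLC35B subfamilies were examined in the lumbar spinal cord of rats after chronic psychological stress. The set comprised 9 genes, Slc35a1, Slc35a2, Slc35a3, Slc35a4, Slc35a5, Slc35b1, Slc35b2, Slc35b3 and Slc35b4, of the 16194 gene symbols that had a probe on the array. Each of the 9 genes had 1 probe, found by its gene name among the probes that are not controls. Slc35a5 was selected on its stressed minus control difference, its signal being higher in the stressed rats of these data, so its values are given as a description with no test. The other 8 genes were taken for their family name.

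Glycans are built in the Golgi apparatus and the endoplasmic reticulum, but most of the activated sugars that serve as donors are made in the cytosol or nucleus. SLC35 proteins span the membrane of these compartments and exchange the donor for a spent nucleotide. In the nervous system the products include gangliosides, polysialic acid, the galactolipids of myelin and the sulfated chains of proteoglycans. Not every member carries a nucleotide sugar, since Slc35b2 and Slc35b3 carry PAPS, the sulfate donor, and Slc35b1 has been described as the ATP/ADP exchanger of the endoplasmic reticulum.

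RNA of the L6S1 segments was measured in 4 stressed and 4 control male Wistar rats, 12 weeks old, with 1 array per rat. Stressed rats underwent water avoidance (WA), in which the animal is kept on a small block standing in water, for 1 h on each of 10 days, and the cord was removed 24 h after the final session. Control rats had no WA stress and, by the study's account, were handled for 10 days. The labels give no other genotype or agent for either group. The arrays were Agilent 1-colour rat arrays, and a value below is the log2 signal of a probe relative to the 75th percentile of its array. Because probes differ in brightness, the level of one gene was not set against that of another. The values came from pieces of whole cord, in which fewer cells of a type and less RNA per cell cannot be told apart.

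The 8 arrays shared 1 slide, whose row 1 held the stressed group and row 2 the control group, so slide row and group cannot be told apart. Control rat 2 stood apart from the other 3 controls, with an array weight of 0.107 against 0.784 to 2.71 for the other 7 arrays. The signal of 5′ probes minus that of 3′ probes of the same transcript, a measure of how far labelling reached from the 3′ end, was 0.22 in control 2 over 1885 transcripts. The stressed rats had values of 0.09 to 0.17, and the other 3 controls of -0.30 to -0.18 (stressed minus control 0.283, exact permutation test, two-sided, p = 0.143, smallest possible 0.0286). Control 2 was therefore on the side of the stressed rats in this measure, and differences between the groups are given with and without it. Without control 2 the groups did not overlap in this measure, so group and measure cannot be told apart in that fit. All markers of neurons, astrocytes, oligodendrocytes, microglia and endothelium that had a probe were above background on all 8 arrays. The median log2 difference, stressed minus control, of these markers was 0.20 for neurons, 0.26 for astrocytes, 0.27 for oligodendrocytes (1 of 5 called at an FDR below 0.1), 0.02 for microglia and 0.16 for endothelium (1 of 4 called), and -1.18 for Schwann cells. The summed signal of the 3 Schwann cell markers with a probe, relative to the 75th percentile, spread from 0.294 to 53.0 in control and from 0.278 to 13.3 in stressed rats, and the part of these markers in the results was not tested.

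Slc35a5 encodes a member of the family whose substrate is less settled than that of its relatives. Its probe is 60 bases long and lies on the + strand at chr11:57208891-57208950 of rn4, from base 1361 of the transcript. Of its 3 forward reading frames 1 is free of stop codons, and whether the probe lies in coding sequence or in a UTR was not analysed here. It is shown because the description of Slc35a5 rests on this 1 probe.
Slc35a5 probe: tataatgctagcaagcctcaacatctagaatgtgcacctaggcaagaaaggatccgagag

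The Slc35a5 signal was -4.86, -4.21, -4.38 and -4.24 in controls 1 to 4. It was -3.32, -3.03, -3.01 and -3.33 in stressed rats 1 to 4. All 4 stressed rats lay above all 4 controls, with 0.88 log2 units between the lowest stressed and the highest control rat. The group means were -4.42 ± 0.30 (SD, n = 4) for control and -3.17 ± 0.18 (SD, n = 4) for stressed rats, and the log2 difference was 1.25 (SE 0.16) or 2.38-fold. Control 2 was the highest of the controls, 0.28 above the mean of the other 3, and the log2 difference without it was 1.32. With the 5′ minus 3′ measure as a covariate it was 1.03, and with the normexp background correction, whose offset of 50 draws dim probes together, it was 0.82.

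Slc35a5 is a dim probe, but it was well above background on all 8 arrays. Before scaling, its processed signal was 73.7, 99.4, 111 and 123 in controls 1 to 4 and 175, 228, 240 and 193 in stressed rats 1 to 4. The dimmest spot called well above background on the same arrays had a signal between 12.7 and 16.1. The groups also did not overlap in the unscaled signal. Its log2 difference, on which it was chosen, was the 255th highest of 23678 tested probes.

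**Figure D1:**
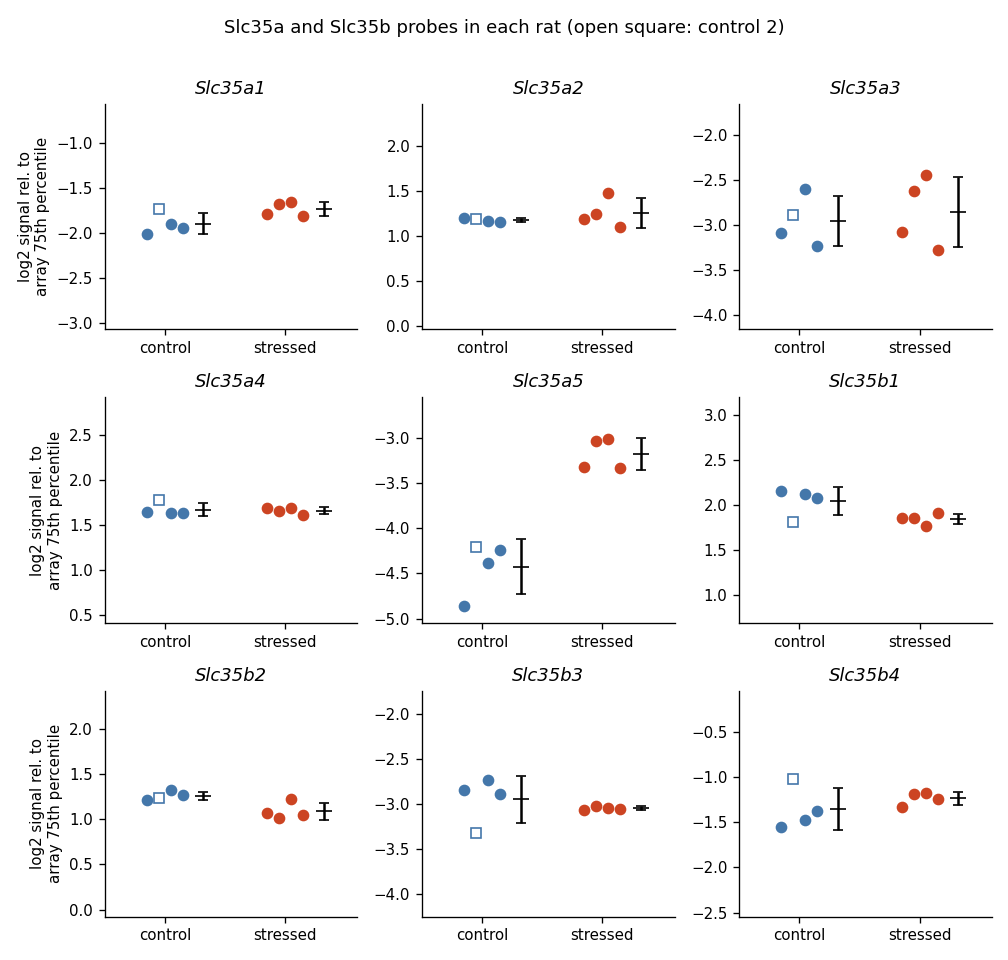
Log2 signal of each Slc35a and Slc35b probe relative to the array's 75th percentile, 1 point per rat, with the mean and SD of each group in black. Every panel spans the same range of log2 units. The groups are apart for Slc35a5 and overlap for the other 8 genes, and control 2 (open square) lies away from the other controls for Slc35b3 and Slc35b4.

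Slc35a1, the carrier of CMP-sialic acid, measured -2.01, -1.74, -1.90 and -1.95 in controls 1 to 4 and -1.79, -1.68, -1.66 and -1.81 in stressed rats 1 to 4. Only control 2 reached the range of the stressed rats. Stressed and control rats differed by 0.16 log2 units (SE 0.08, 95% confidence interval -0.03 to 0.35), which did not pass the test (limma, adjusted p = 0.296). Without control 2 the log2 difference was 0.22 and passed an FDR below 0.1 (limma, adjusted p = 0.0394). With the 5′ minus 3′ measure as a covariate it was 0.04 (limma, adjusted p = 0.797).

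Slc35a2, the carrier of UDP-galactose, measured 1.20, 1.19, 1.17 and 1.15 in controls 1 to 4 and 1.19, 1.24, 1.48 and 1.10 in stressed rats 1 to 4. The controls lay within 0.05 of each other, and stressed rat 3 alone was well above them. Their means differed by 0.07 log2 units (SE 0.09, 95% confidence interval -0.13 to 0.28, limma adjusted p = 0.652), and it was -0.04 when arrays were scaled to their median. Without control 2 it was 0.08 (limma, adjusted p = 0.557).

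Slc35a3, the carrier of UDP-N-acetylglucosamine, measured -3.09, -2.89, -2.60 and -3.24 in controls 1 to 4 and -3.08, -2.63, -2.45 and -3.28 in stressed rats 1 to 4. The spread within the stressed group (SD 0.38) and within the control group (SD 0.28) exceeded the log2 difference of 0.10 (SE 0.21, 95% confidence interval -0.40 to 0.59, limma adjusted p = 0.810), which was -0.03 after quantile normalization and -0.02 after median scaling. The probe has 2 spots, which differed by at most 0.13 log2 units on any array, less than the spread between rats. Without control 2 the log2 difference was 0.12 (limma, adjusted p = 0.740).

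Slc35a4, a member whose substrate is unsettled, measured 1.64, 1.78, 1.63 and 1.63 in controls 1 to 4 and 1.69, 1.65, 1.69 and 1.61 in stressed rats 1 to 4. Its groups overlapped, and apart from control 2 all rats lay between 1.61 and 1.69. The 2 spots of the probe differed by at most 0.16 log2 units on any array. Stressed minus control was -0.01 log2 units (SE 0.07, 95% confidence interval -0.16 to 0.14, limma adjusted p = 0.940), with the sign turned after quantile normalization (0.01) and without control 2 (0.03, limma adjusted p = 0.721).

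In the SLC35B subfamily, Slc35b1 measured 2.15, 1.81, 2.12 and 2.08 in controls 1 to 4 and 1.85, 1.85, 1.77 and 1.91 in stressed rats 1 to 4. Control 2 lay among the stressed rats and the other 3 controls above them. The 2 spots of the probe differed by 0.10 to 0.25 log2 units on an array. The log2 difference was -0.19 (SE 0.09, 95% confidence interval -0.40 to 0.02) and did not pass the test (limma, adjusted p = 0.274). Without control 2 the log2 difference was -0.27 (limma, adjusted p = 0.0115). With the 5′ minus 3′ measure as a covariate it was -0.01 (limma, adjusted p = 0.928).

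Slc35b2, a PAPS carrier, measured 1.21, 1.23, 1.32 and 1.27 in controls 1 to 4 and 1.07, 1.01, 1.22 and 1.05 in stressed rats 1 to 4. Stressed rat 3 reached the lowest control, and the other 3 stressed rats lay below all controls. The log2 difference was -0.17 (SE 0.07), with an unadjusted p of 0.0478 and an adjusted p of 0.243 (limma). It differed little without control 2 (-0.18, limma adjusted p = 0.0908), which here lay among the other controls. With the 5′ minus 3′ measure as a covariate the log2 difference was -0.15 (limma, adjusted p = 0.337).

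Slc35b3, the other PAPS carrier, measured -2.84, -3.32, -2.73 and -2.89 in controls 1 to 4 and -3.07, -3.02, -3.04 and -3.05 in stressed rats 1 to 4. The stressed rats lay within 0.05 of each other, with 3 controls above and control 2 below them. Stressed minus control was -0.10 log2 units (SE 0.13, 95% confidence interval -0.39 to 0.19, limma adjusted p = 0.669). Without control 2 it was -0.22 (limma, adjusted p = 0.0264), and with the 5′ minus 3′ measure as a covariate it was 0.19 (limma, adjusted p = 0.165).

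Slc35b4, a carrier of UDP-xylose and UDP-N-acetylglucosamine, measured -1.55, -1.02, -1.47 and -1.37 in controls 1 to 4 and -1.33, -1.19, -1.18 and -1.24 in stressed rats 1 to 4. Control 2 was the highest of all rats and the other 3 controls were the lowest. The log2 difference was 0.12 (SE 0.12, 95% confidence interval -0.16 to 0.39, limma adjusted p = 0.589). Without control 2 it was 0.23 (limma, adjusted p = 0.0433), and with the 5′ minus 3′ measure as a covariate it was -0.14 (limma, adjusted p = 0.330).

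All 9 probes passed the filter on dim probes, being well above background on every array of both groups. At an FDR below 0.1, 885 of 23678 tested probes (3.74%) were called between stressed and control rats, and at an FDR below 0.05, 113 (0.477%). Of the 885 probes 74.0% were higher in stressed rats, against 58.1% of the calls after quantile normalization and 47.2% after median scaling. Slc35a5, chosen on this contrast, is given no test. Of the other 8 genes 0 were called by limma, and 1, Slc35b2, had an unadjusted p below 0.05, against 20.3% of all tested probes. Of these 8, 4 were higher and 4 lower in stressed rats, with log2 differences from -0.19 to 0.16 and a median of 0.03, beside a median of 0.06 over all tested probes.

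Groups that did not overlap were found for 12.1% of tested probes and for none of the 8 members other than Slc35a5. Without control 2 the groups were apart for Slc35a1, Slc35b1, Slc35b3 and Slc35b4 of these 8, and for 43.8% of tested probes. Slc35a5, chosen on this contrast, had groups apart in both cases and is not counted. In the fit without control 2, 42.4% of tested probes were called. Of the 8 members other than Slc35a5, Slc35a1, Slc35b1, Slc35b2, Slc35b3 and Slc35b4 were called too. In that fit group and the 5′ minus 3′ measure cannot be told apart. Slc35a1 and Slc35b4 were then higher in stressed rats, and Slc35b1, Slc35b2 and Slc35b3 lower. Without stressed rat 1, 2 or 3 or control 3, at most 49 probes were called in all. The log2 difference of Slc35a5 lay between 1.10 and 1.32 over the 8 fits that each left out 1 array.

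**Figure D2:**
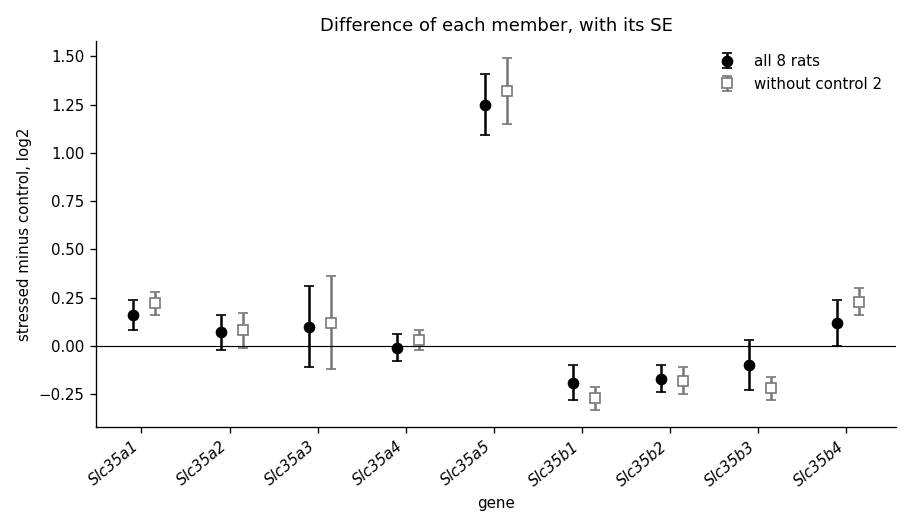
Log2 difference, stressed minus control, of each member with its SE, from all 8 rats (filled circles) and without control 2 (open squares). Slc35a5 stands at 1.25 and 1.32, and the other 8 members lie between -0.27 and 0.23.

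To set Slc35a5 against its relatives within each rat, every gene was centred on its mean over the 8 arrays and the median of the other 8 members was subtracted. This difference was -1.04, -0.45, -0.64 and -0.39 in controls 1 to 4 and 0.53, 0.76, 0.71 and 0.52 in stressed rats 1 to 4. Its group means were -0.63 ± 0.29 (SD, n = 4) and 0.63 ± 0.12 (SD, n = 4), which are 1.26 apart. The median of the other members moved little, between -0.05 and 0.06 in controls and between -0.06 and 0.08 in stressed rats. A shift of a whole array cancels in this difference, and it was 1.33 without control 2 and 0.82 with normexp. The difference of Slc35a5 was 6.44 times the largest among the other members in size, that of Slc35b1.

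**Figure D3:**
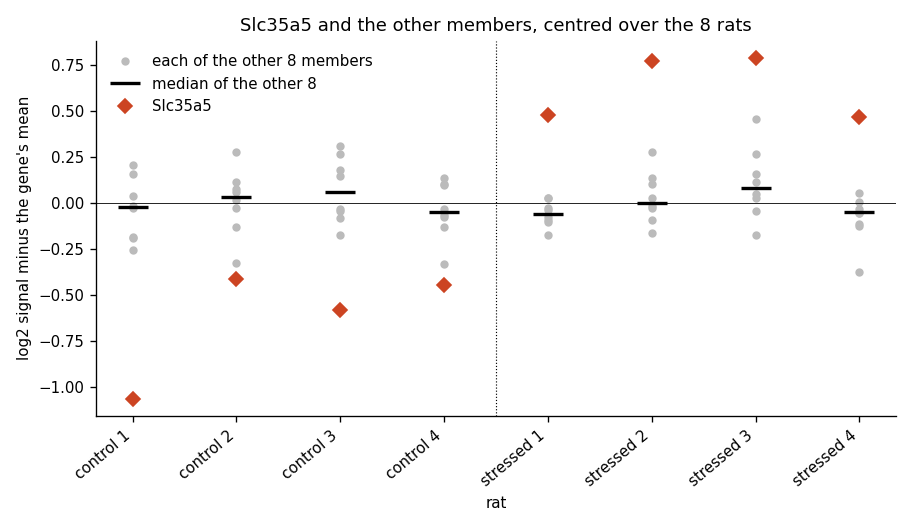
Log2 signal of each gene minus its own mean over the 8 arrays, by rat, for Slc35a5 (diamonds), the other 8 members (grey) and their median (black bars). Slc35a5 is below the other members in the 4 controls and above them in the 4 stressed rats, while their median stays between -0.06 and 0.08.

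Likeness of profile was measured as the root mean square difference between 2 centred profiles over the 8 arrays, for 13259 gene symbols outside the family. The nearest to Slc35a5 was Baz2b, a bromodomain gene of chromatin remodelling, at 0.162. It was followed by Zfp263 at 0.193, Ptn at 0.207, Myef2 at 0.214 and Zfp37 at 0.218, beside a median of 0.675. Zfp263 and Zfp37 encode zinc finger proteins, Ptn the growth factor pleiotrophin, and Myef2 a repressor of the myelin basic protein gene. Baz2b measured -4.42, -3.55, -3.99 and -3.84 in controls 1 to 4 and -3.09, -2.83, -2.83 and -3.19 in stressed rats 1 to 4, with control 2 again the highest control. The members were farther off, from 0.565 for Slc35a1 to 0.776 for Slc35b1, and 2460 symbols were nearer to Slc35a5 than Slc35a1 was. Slc35a5 was chosen on its rise, so a profile near it must rise too, and the 5 nearest rose by 0.92 to 1.31. A gene with the same value on all 8 arrays would lie at 0.660, so the distances of the members largely restate their small differences.

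In RefSeq (GRCr8) Slc35a5 starts 154 bases from Atg3, which is read in the opposite direction. Atg3 encodes the enzyme that couples the Atg8 family to lipid in autophagy. Its probe measured 1.07, 0.82, 1.15 and 1.19 in controls 1 to 4 and 1.16, 1.27, 1.39 and 1.23 in stressed rats 1 to 4. The groups overlapped, and the log2 difference of 0.21 (SE 0.10) did not pass the test (limma, adjusted p = 0.286), nor did that of 0.13 without control 2 (limma, adjusted p = 0.211). On the other side lies Ccdc80, 10684 bases beyond the end of Slc35a5, with a log2 difference of -0.21 (SE 0.09, limma adjusted p = 0.259), or -0.17 without control 2 (limma, adjusted p = 0.190). On rn4 the transcript TC630296 has a probe on the same strand at chr11:57211675-57211734, 2724 bases beyond the probe of Slc35a5, and its log2 difference was 0.11 (SE 0.06, limma adjusted p = 0.348), and 0.11 without control 2 (limma, adjusted p = 0.187).

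The stretch between the starts of Atg3 and Slc35a5 is shown because both genes are read outward from it. It lies at chr11:69159281-69159434 of GRCr8 and is given on the + strand, the strand of Slc35a5, from the RefSeq promoter table. Capitals mark CACGTG, an E-box, at 2 places, GGGCGG, a GC box, on each strand (CCGCCC on the strand shown), and CCGGAAG, an ETS-type motif.
Atg3 to Slc35a5: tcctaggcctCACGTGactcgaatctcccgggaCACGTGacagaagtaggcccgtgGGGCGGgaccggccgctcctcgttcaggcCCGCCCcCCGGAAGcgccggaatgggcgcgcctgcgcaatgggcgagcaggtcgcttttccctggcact

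Motifs were searched on both strands in windows from 250 bases before to 50 bases after each gene start, available for 8 of the 9 members and for 33469 windows in all. CACGTG was present in 6.42% of all windows and, among the 8 members, in that of Slc35a5. GGGCGG was present in 33.1% of all windows and in 4 of the 8, those of Slc35a1, Slc35a2, Slc35a5 and Slc35b3. CCGGAAG was present in 8.75% of all windows and in 5 of the 8, the same 4 members and Slc35b4. CCAAT was present in 37.5% of all windows and in those of Slc35a3, Slc35b2 and Slc35b4. TATAAA (14.2% of all windows) and TGACGTCA (1.83%) were in none of the 8. The window of Slc35a5 had 25 CpG dinucleotides and 65.3% G or C, within the range of the members, from 1 CpG for Slc35a4 to 39 for Slc35a3.

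Neighbours of Slc35a1, Slc35a2, Slc35b1 and Slc35b2 that had a tested probe were also compared. Next to Slc35a2, Pqbp1 had a log2 difference of -0.33 (limma, adjusted p = 0.137). Next to Slc35a1, Rars2 stood at 0.04 and Cfap206 at -0.41, and beside Slc35b1 Fam117a stood at -0.22. Next to Slc35b2, Hsp90ab1 stood at -0.18 and Nfkbie at 0.10. None of the 8 named neighbours, Atg3 and Ccdc80 included, passed an FDR below 0.1 by limma. An unadjusted p below 0.05 was found for 1, Pqbp1, against 20.3% of all tested probes. Without control 2, 4 of the 8 were called, beside 42.4% of all tested probes. Pqbp1 (-0.42), Fam117a (-0.42) and Hsp90ab1 (-0.28) were then lower and Nfkbie (0.24) higher in stressed rats. Rars2 stood at 0.07 and Cfap206 at -0.46.

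Genes that make, carry or use the same substrates were counted in 8 lists, each gene by its brightest probe. Of 156 tested genes 6 (3.85%) were called at an FDR below 0.1, 3 higher and 3 lower in stressed rats, beside 2.34% higher and 1.29% lower among all 13268 gene symbols. Without control 2, 80 of the 156 were called, beside 42.4% of all tested probes. Without stressed rat 1, 2 or 3 or control 1, 3 or 4, 0 of the 156 were called. The medians of the lists lay between -0.14 and 0.16 on the log2 scale, beside 0.02 over all symbols.

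The list nearest to the members, the other SLC35 genes, had 0 of 11 tested genes called by limma. Of the 11 genes 2 had an unadjusted p below 0.05, against 20.3% of all tested probes. The log2 differences of the 11 genes ran from -0.27 for Slc35f1 to 0.24 for Slc35f5, with a median of -0.04. Without control 2, 5 of the 11 were called, beside 42.4% of all tested probes. Slc35f5 (0.32, limma adjusted p = 0.0643) was among them, and Slc35f1 was not (-0.27). Slc35d3, Slc35e3, Slc35d1 and Slc35e1 had a second tested probe, dimmer than the first. For Slc35d3 the probe from base 1158 of the transcript differed by 1.30 (SE 0.48, limma adjusted p = 0.197) and the brighter one from base 2550 by 0.00. Without control 2 these values were 1.80 (limma, adjusted p = 0.00182) and 0.05. For Slc35e3 the probe from base 1738 differed by 0.75 (SE 0.23, limma adjusted p = 0.151) and that from base 2755 by -0.05, or 0.94 and -0.16 without control 2, both then called (limma, adjusted p = 0.00755 and 0.0751). For Slc35d1 the probe from base 2614 differed by 0.45 and that from base 737 by 0.09, or 0.44 and 0.14 without control 2. The probes of Slc35e1 were close to each other, at -0.09 from base 1114 and -0.15 from base 3148, or -0.09 and -0.14 without control 2. Slc35a5 has no second probe to compare.

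Among 31 genes of nucleotide sugar and PAPS synthesis 2 rose, Uap1 and Fpgt, 0 fell, and the median log2 difference was 0.03. Uap1, which makes UDP-N-acetylglucosamine, measured -3.88, -2.07, -3.58 and -3.25 in controls 1 to 4 and -1.93, -1.61, -1.38 and -1.85 in stressed rats 1 to 4. Its groups were apart, with control 2 close below the stressed rats, and its log2 difference was 1.50 (SE 0.37, limma adjusted p = 0.0977), or 1.88 without control 2. Fpgt, which makes GDP-fucose in the salvage pathway, measured -4.94, -4.59, -4.83 and -4.70 in controls 1 to 4 and -4.01, -3.98, -4.01 and -4.33 in stressed rats 1 to 4. Its groups did not overlap either, and its log2 difference was 0.68 (SE 0.11, limma adjusted p = 0.0532), or 0.74 without control 2. Cmas, which makes the substrate of Slc35a1, differed by 0.24 (limma, adjusted p = 0.239), and by 0.33 without control 2 (limma, adjusted p = 0.00881). Papss1, which makes the substrate of Slc35b2 and Slc35b3, differed by 0.26 (limma, adjusted p = 0.259), and by 0.31 without control 2 (limma, adjusted p = 0.0787). Papss2, the other PAPS synthesis gene, differed by 0.14 (limma, adjusted p = 0.342). Its difference without control 2 was 0.09 and was not called (limma, adjusted p = 0.293). Without control 2, 18 of the 31 were called, beside 42.4% of all tested probes.

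Of the enzymes that use these donors, 1 of 14 tested sialyltransferases was called and was lower in stressed rats, St6galnac3 (-0.32, SE 0.07, limma adjusted p = 0.0850). It acts on sialylated O-glycans and gangliosides, and the list had a median of 0.16. None of 15 galactosyltransferases was called by limma (3 with an unadjusted p below 0.05, against 20.3% of all tested probes). Their list ran from -0.61 for A4galt to 0.66 for Ugt8 (limma, adjusted p = 0.277), which makes the galactolipid of myelin. The median of the galactosyltransferases was 0.09. Without control 2, 7 of 14 sialyltransferases and 7 of 15 galactosyltransferases were called, beside 42.4% of all tested probes. Ugt8 (0.96, limma adjusted p = 0.0109) was among them and A4galt (-0.58) was not. None of 26 N-acetylglucosamine transferases was called by limma (7 with an unadjusted p below 0.05, against 20.3% of all tested probes). Gcnt1, a branching enzyme of O-glycans, was well above background on 1 of 4 control arrays, that of control 2, and on all 4 stressed arrays, so it passed the filter through the stressed group and no fold is given. It measured -8.94, -5.04, -8.31 and -8.01 in controls 1 to 4 and -4.81, -4.65, -4.22 and -4.54 in stressed rats 1 to 4. The 3 lowest of these control values are at background, and control 2 lay near the stressed rats. The lowest of that list were Ext1 and Pomgnt1, both at -0.28. Without control 2, 17 of the 26 were called, beside 42.4% of all tested probes, Pomgnt1 (-0.30) and Ext1 (-0.27) among them. This count and that of an unadjusted p below 0.05 include Gcnt1, which rests there on control values at background.

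None of 4 xylosyltransferases was called by limma (1 with an unadjusted p below 0.05, against 20.3% of all tested probes). Large was lowest at -0.22 and Xylt1 highest at 0.35. Both were called without control 2, at -0.23 (limma, adjusted p = 0.0194) and 0.51 (limma, adjusted p = 0.0737). Of 31 sulfotransferases Chst13, a chondroitin sulfotransferase, rose by 0.42 (limma, adjusted p = 0.0936) and Gal3st3, a galactose sulfotransferase, fell by 0.40 (limma, adjusted p = 0.0865), and the median was 0.06. Of 24 genes of Golgi structure Glg1, a membrane sialoglycoprotein of the Golgi, fell by 0.46 (limma, adjusted p = 0.0506), and the median was 0.07. The 6 called genes had a larger difference without control 2 except Gal3st3, which stood at -0.32. In that fit 11 of the 31 sulfotransferases and 13 of the 24 genes of Golgi structure were called, beside 42.4% of all tested probes. These counts include Chst11 and Gosr1. They were well above background on 2 and 1 of the 4 control arrays, respectively, and on all 4 stressed arrays.

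**Figure D4:**
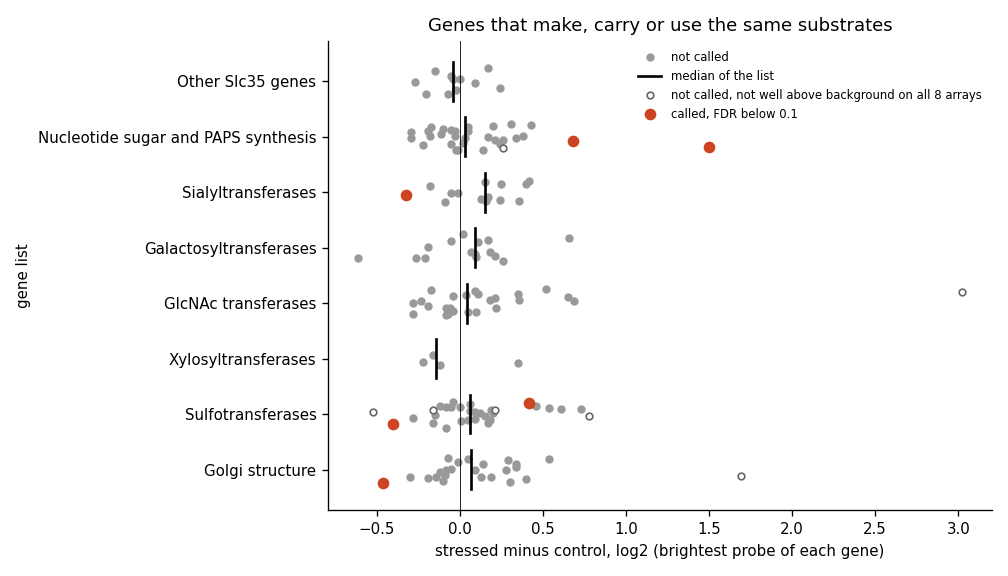
Log2 difference, stressed minus control, of each tested gene in 8 lists (1 point per gene), with called genes in red 7 genes that were not well above background on all 8 arrays as open circles, and the median of each list as a black bar. The medians lie between -0.14 and 0.16, with 6 of 156 genes called, and the farthest open circle, Gcnt1, rests on control values at background.

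**Figure D5:**
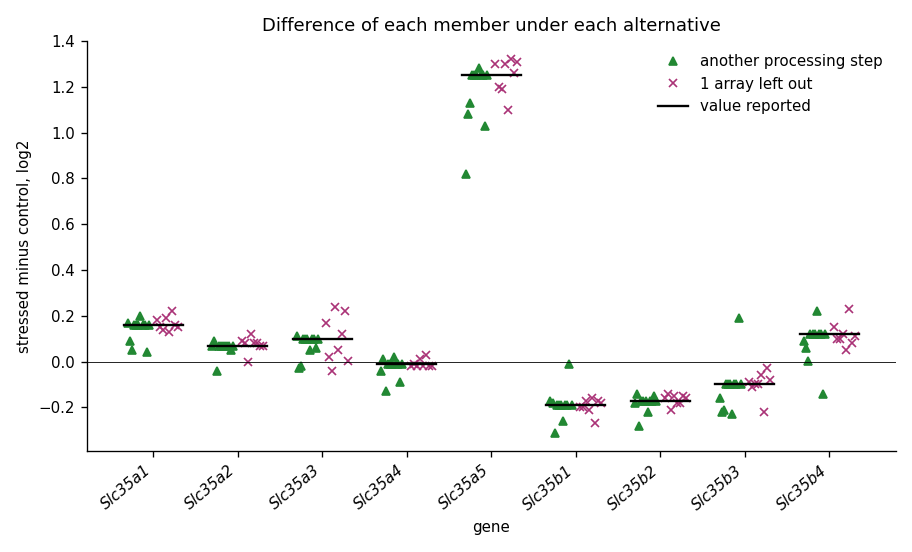
Log2 difference of each member under 11 other processing settings (triangles) and without each array in turn (crosses), with the reported value as a black bar. Slc35a5 lies between 0.82 and 1.32, and the other 8 members lie between -0.31 and 0.24. Settings that change only the filter, the test or the choice of probes return the reported value.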

How the data were processed

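The files that the authors deposited are Agilent Feature Extraction scans of 8 arrays, 4 stressed and 4 control, and place the probes on rn4. The intensity used, the processed signal, was background-subtracted by that software per the file headers. The authors' series table holds the same intensity rounded to 1 decimal. No normalization between arrays was seen, and the study's further steps (dChip) name no test.

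Control spots and spots flagged as outliers (308 to 452 of 58717 per array) were left out. The log2 signal minus each array's 75th percentile (1751 to 2335 before scaling) was averaged over the spots of a probe. The 23678 of 30367 probes well above background on at least 4 of 8 arrays were tested with limma 3.58.1 (lmFit and eBayes, R 4.3.3), two-sided, with Benjamini-Hochberg adjustment over all of them. A call means an FDR below 0.1. The script was tested on simulated data. Arrays give no counts, so their number limits the precision.

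The members and lists were chosen with earlier results of these data known. Named are all members, the 5 profiles most like Slc35a5, the called genes of each list or otherwise its extremes, and the nearest RefSeq gene on each side, except beside Slc35a3, which is not reported here. Cmas, Papss1 and Papss2, and the second probes of 4 other Slc35 genes, were added after their values were seen. Alternatives were normexp with an offset of 50, quantile and median scaling, the series table, no filter, a filter on all 8 arrays, array weights, a variance trend with robust estimation, the replicate number as a block, the 5′ minus 3′ covariate (probes at least 300 bases apart), a single probe for each gene symbol, and the omission of each array in turn. Whether probes lie in exons or UTRs was not analysed here.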

Additional observations from a re-analysis of the deposited data

Results flagged for a closer look

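Slc35a4 in control 2 lay far from the other 3 controls for the size of that group's range. The gap to the nearest control was 0.917 of the whole range of the 4 controls, above Dixon's critical value for 4 samples. In log2 units control 2 was 0.15 above the mean of the other 3. Of 44 groups of 4 rats examined in this way 1 was outlying, where chance gives about 1 in 20, or 2.2 of 44.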

How the results depend on the processing

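The difference between Slc35a5 and the other members was 0.82 with normexp and between 1.08 and 1.33 under the other alternatives run, 1.12 to 1.33 with each array left out. Slc35a5 alone fell from 1.25 to 0.82 with normexp and to 1.03 with the 5′ minus 3′ covariate. The cause was not tested for these or for the counts below. In place of 885 called probes there were 215 with normexp, 3010 with no filter on dim probes, 11983 with array weights and 2390 with the 5′ minus 3′ covariate, and from 0 to 10036 with 1 array left out, the highest without control 2. Of the 8 members other than Slc35a5, 0 were called in the reported fit. Slc35a1, Slc35b1, Slc35b2, Slc35b3 and Slc35b4 were called with array weights and without control 2. In place of 6 called list genes there were 1 with normexp, 12 after quantile normalization, 15 after median scaling, 12 with no filter, 89 with array weights, 10 with the variance trend and 21 with the covariate, and from 0 to 80 with 1 array left out. The correlations of same-numbered rats were 0.0952, 0.12, -0.0869 and 0.305, and whether the replicate numbers pair the rats was not tested. With the replicate block 0 probes, 0 members and 0 list genes were called.

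Median scaling shifted the median of all probes by -0.11. Of 152 values of the 8 members taken by name, 131 kept their direction and stayed uncalled, 10 kept it and were called (5 with array weights, 5 without control 2) and 11 changed sign, none of these being called. Many of the 131 could not change direction. The filters, the variance trend, the replicate block and the single probe for each symbol leave a member's log2 difference as it is. The series table holds the same intensity. The sign of Slc35a2 turned after median scaling (-0.04) and without stressed rat 3 (-0.001), with 1 array left out from -0.001 to 0.12. That of Slc35a3 turned after quantile normalization (-0.03), after median scaling (-0.02) and without stressed rat 3, with 1 array left out from -0.04 to 0.24. That of Slc35a4 turned after quantile normalization (0.01) and with array weights (0.02), with 1 array left out from -0.02 to 0.03, positive without control 2 or stressed rat 4. With the covariate Slc35b3 stood at 0.19 and Slc35b4 at -0.14. The series table gave 885 called probes too. Precision is limited by the 4 rats in each group and, for Slc35a5, by a dim probe.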
